A study of Mus musculus with 2 samples.

Results

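The genes described here are 10 genes of natural killer (NK) cells and their cytotoxic granules: Prf1, Gzma, Gzmb, Nkg7, Ncr1, Klrb1c, Klrk1, Klrd1, Eomes and Il2rb. They were listed by name, and all 10 were found among the 21938 protein-coding genes of the annotation used. Chromatin accessibility around them was read by DNase-seq, an assay that sequences the ends left where the enzyme DNase I has cut open DNA in nuclei. The tissue was whole spleen of male B6CASTF1/J mice aged 10 days, a first-generation hybrid of C57BL/6 and CAST/EiJ. The 2 libraries form 1 group, without treatment or control, and are called replicates 1 and 2 as labelled. The labels number the males separately under a shared donor identifier, so each library is taken as 1 animal. With 1 group there was no contrast to test, and every value is given per library beside the same measure over the rest of the genome.

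NK cells are lymphocytes that kill infected or transformed cells without prior priming. On contact they release granules in which perforin opens a way for granzymes into the target cell, and the decision to kill rests on activating and inhibitory receptors at the cell surface. In mice many of these receptors are C-type lectins encoded side by side in the NK gene complex on chromosome 6. Interleukin-15, read through a receptor that includes the Il2rb chain, keeps NK cells alive, and the T-box factor Eomes takes part in their maturation. Cytotoxic T cells share the granule genes and several of the receptors. In bulk spleen, fewer NK cells and less accessibility per cell cannot be told apart.

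Most of these NK genes had no promoter peak of both libraries in these spleens. Promoters were taken as 500 bp on each side of every annotated transcription start site (TSS), and an accessible site was a region where peaks of both libraries overlapped. Of the 10 genes, 3 had a promoter peak in each library (Prf1, Klrd1 and Il2rb), 1 had it in replicate 1 alone (Eomes), and 6 had none in either. Over all protein-coding genes 60.7% had one in both libraries. Of the 9 NK genes in the CpG-poor class described below 3 had it, against 19.1% of that class. Within 50 kb of the 10 genes lay 55 sites found in both libraries, and 43 of them (78.2%) were outside every promoter, against 66.7% of all sites. The sequences that carry these observations are those of the promoter sites of Prf1 and Klrd1 and of the strongest sites outside promoters around Prf1, Gzmb, Klrb1c, Klrd1, Eomes and Il2rb. Strongest here means the highest mean signal of both libraries. For Klrb1c a pair of repeated copies is added, because the copies bear on how its many sites are read. All are from the GRCm38 assembly, which is mm10, on the strand of the named gene, and capitals mark bases that lay in footprints of both libraries. A footprint is a short stretch that DNase I cut less than its surroundings. The bases of the Klrd1 site that are untranslated region were left out.
Prf1 promoter site, chr10:61297544-61297800, plus strand: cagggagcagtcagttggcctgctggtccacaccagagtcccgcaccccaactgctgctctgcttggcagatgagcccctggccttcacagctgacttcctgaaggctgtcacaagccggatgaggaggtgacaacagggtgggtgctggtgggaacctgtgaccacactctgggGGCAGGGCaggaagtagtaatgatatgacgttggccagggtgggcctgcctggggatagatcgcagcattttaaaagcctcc
Klrd1 promoter site, chr6:129591591-129591781, plus strand: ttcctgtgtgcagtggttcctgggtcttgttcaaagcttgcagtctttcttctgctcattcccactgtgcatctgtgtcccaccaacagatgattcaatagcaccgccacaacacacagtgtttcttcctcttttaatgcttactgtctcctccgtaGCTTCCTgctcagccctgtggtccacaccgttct
Prf1 downstream site, chr10:61336201-61336380, plus strand: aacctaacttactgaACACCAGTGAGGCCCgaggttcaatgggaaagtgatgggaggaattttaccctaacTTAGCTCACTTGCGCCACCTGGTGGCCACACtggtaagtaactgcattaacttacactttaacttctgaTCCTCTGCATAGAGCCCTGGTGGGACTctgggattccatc
Gzmb upstream site, chr14:56304281-56304460, minus strand: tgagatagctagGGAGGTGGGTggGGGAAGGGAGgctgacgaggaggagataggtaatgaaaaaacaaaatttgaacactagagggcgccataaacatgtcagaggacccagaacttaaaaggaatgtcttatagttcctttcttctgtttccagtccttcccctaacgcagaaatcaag
Klrb1c upstream site, chr6:128803221-128803440, minus strand: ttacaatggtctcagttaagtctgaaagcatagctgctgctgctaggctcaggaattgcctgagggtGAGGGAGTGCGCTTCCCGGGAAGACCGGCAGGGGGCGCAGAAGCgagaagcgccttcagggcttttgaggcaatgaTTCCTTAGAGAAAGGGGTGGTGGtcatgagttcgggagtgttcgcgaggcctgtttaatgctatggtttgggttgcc
Klrb1c downstream site, chr6:128760141-128760300, minus strand: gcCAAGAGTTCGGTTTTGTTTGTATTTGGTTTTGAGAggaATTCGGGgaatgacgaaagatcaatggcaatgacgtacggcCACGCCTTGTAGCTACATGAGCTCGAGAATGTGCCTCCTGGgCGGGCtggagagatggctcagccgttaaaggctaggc
Klrb1c upstream copy of the downstream site, chr6:128798901-128799080, minus strand: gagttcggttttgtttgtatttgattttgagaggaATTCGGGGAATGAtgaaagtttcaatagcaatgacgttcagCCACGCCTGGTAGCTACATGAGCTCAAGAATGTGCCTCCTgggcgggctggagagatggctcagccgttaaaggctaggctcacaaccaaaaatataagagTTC
Klrd1 upstream site, chr6:129559401-129559580, plus strand: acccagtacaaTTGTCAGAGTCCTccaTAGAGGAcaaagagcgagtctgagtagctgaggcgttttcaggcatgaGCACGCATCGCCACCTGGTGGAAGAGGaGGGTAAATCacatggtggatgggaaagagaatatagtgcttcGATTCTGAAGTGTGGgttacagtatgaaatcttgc
Eomes downstream site, chr9:118489761-118489920, plus strand: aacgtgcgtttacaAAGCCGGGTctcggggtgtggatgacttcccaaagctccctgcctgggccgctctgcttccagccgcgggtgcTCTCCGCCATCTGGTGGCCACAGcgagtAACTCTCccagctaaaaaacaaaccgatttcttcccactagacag
Il2rb downstream site, chr15:78447761-78447920, minus strand: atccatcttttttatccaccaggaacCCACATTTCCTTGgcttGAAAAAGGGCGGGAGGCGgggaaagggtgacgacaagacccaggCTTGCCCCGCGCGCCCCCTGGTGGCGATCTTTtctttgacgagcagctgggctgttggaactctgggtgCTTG

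The libraries differed in how much was called. Replicate 1 had 130476 peaks and replicate 2 had 95847, and of the 146575 regions merged from both lists 73150 (49.9%) held a peak of both. Peak signals are depth-scaled densities in a deposited unit whose constant is not given, so they compare within a library. Over all sites in both, the log2 ratio of replicate 1 over replicate 2 had a median of 0.84 and a standard deviation (SD) of 0.58. Read totals were not analysed here and the depth is unknown. Among marker genes, all 10 B cell genes and all 9 red cell genes in the annotation had a promoter peak of both libraries. So did 7 of 12 T cell genes, 6 of 10 macrophage genes, 5 of 10 neutrophil genes and none of 10 liver genes. The share over all protein-coding genes was 60.7%. Of the liver genes, 7 were in the CpG-poor class described below, where the share was 19.1%.

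Of the 4 granule genes among the 10 (Prf1, Gzma, Gzmb and Nkg7), Prf1, which encodes perforin, had an accessible promoter. A promoter peak of both libraries was found for 3 of the 10 NK genes, against 13323 of 21938 protein-coding genes (60.7%). Taken alone, replicate 1 had a promoter peak for 4 of the 10, against 67.7% of all genes, and replicate 2 for 3 of the 10, against 61.3%. Promoter peaks are common at CpG-rich start sites, so genes were also divided into 3 equal classes by the observed over expected CpG ratio around the most upstream TSS. Of the 10 genes, 9 were in the CpG-poor class, with ratios below 0.303, and Eomes, at 0.622, was in the middle class. Of the 9 NK genes in the CpG-poor class 3 were open, that is had a promoter peak of both libraries, against 19.1% of all genes of that class. In the middle class the share was 70.2% and in the CpG-rich class 92.9%.

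The Prf1 gene spans chr10:61297833-61304680 on the plus strand. Its promoter peak covered chr10:61297621-61297800 in replicate 1, with a signal of 1.26, and chr10:61297544-61297795 in replicate 2, with a signal of 0.423. Both peaks ended upstream of the first annotated exon. The signal exceeded that of 23.5% of open protein-coding promoters in replicate 1 and of 10.4% in replicate 2, so it was a weak promoter among those called. The lowest false discovery rate (FDR) of the cut rate deposited for the promoter was 6.23e-10 in replicate 1 and 9.75e-05 in replicate 2. Each library had 3 footprints in the peak, and 1 place was shared, the 8 capitals GGCAGGGC. The ETS letters GGAAGT began 1 base after it, and an E-box (CAGCTG) and the RUNX letters (on the minus strand) were found in the printed sequence outside shared footprints.

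No accessible promoter was detected for Gzma, Gzmb or Nkg7. Gzma (chr13:113093825-113100981, minus strand) and Gzmb (chr14:56258838-56262260, minus strand) encode serine proteases that perforin delivers. Nkg7 (chr7:43437073-43438249, plus strand) encodes a membrane protein of cytotoxic granules. In both libraries all 3 had no promoter peak, and 0 bases of their promoter windows were listed below an FDR of 0.05. Such bases were found in each library for 3 of the 10 NK genes, against 61.8% of all protein-coding genes. This share was not split by CpG class, and 9 of the 10 NK genes are CpG-poor. A single weak peak lay inside Gzma, in an intron at chr13:113094498-113094671, with 0.379 in replicate 1 and no peak in replicate 2.

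Of the receptor genes Ncr1, Klrb1c, Klrk1 and Klrd1, Klrd1 alone had an open promoter. Ncr1 (chr7:4337724-4345164, plus strand) encodes the activating receptor NKp46, Klrb1c (chr6:128778485-128789215, minus strand) the NK1.1 antigen and Klrk1 (chr6:129610323-129623864, minus strand) the activating receptor NKG2D. All 3 had no promoter peak and 0 promoter bases below an FDR of 0.05 in either library. Klrd1 (chr6:129591782-129598775, plus strand) encodes CD94, which pairs with NKG2 proteins to read class I molecules. Its promoter peak reached a signal of only 0.225 for replicate 1 and 0.276 for replicate 2. Those values exceeded 2.11% and 4.71% of open promoters of the same library, which places Klrd1 near the floor of what was called. The lowest FDR there was 0.0131 in replicate 1 and 5.28e-05 in replicate 2. Each library had 3 footprints in it, with 1 shared place of 7 bases, and the printed sequence holds the RUNX letters, the TCF/LEF letters and an AP-1 match outside that place.

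Eomes and Il2rb had weak peaks at their starts. Eomes (chr9:118478212-118486132, plus strand) had 2 promoter peaks in replicate 1, with signals of 0.600 at chr9:118478521-118478785 and 0.855 at chr9:118479121-118479340, and none in replicate 2. The stronger one lay wholly in coding sequence and exceeded 18.7% of open promoters of replicate 1. In replicate 1, 601 promoter bases of Eomes were listed below an FDR of 0.05, and in replicate 2 there were 0. Il2rb (chr15:78479256-78495271, minus strand), the receptor chain shared by interleukin-2 and interleukin-15, had promoter signals of 0.405 (replicate 1) and 0.314 (replicate 2). The replicate 2 peak was 35 bp wide, lay wholly in untranslated region and held no footprint, while the 332 bp peak of replicate 1 held 5. The lowest FDR at Il2rb was 0.0046 in replicate 1 and 0.0268 in replicate 2. All open promoters had a median signal of 6.93 in replicate 1 and 3.51 in replicate 2, and CpG-poor open promoters had medians of 2.32 and 1.19, so every promoter peak of the 10 genes lay below both medians of its library. Klrd1 and Il2rb lost the call of a peak in both libraries when the shorter, stricter deposited peak list was used.

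**Figure D1:**
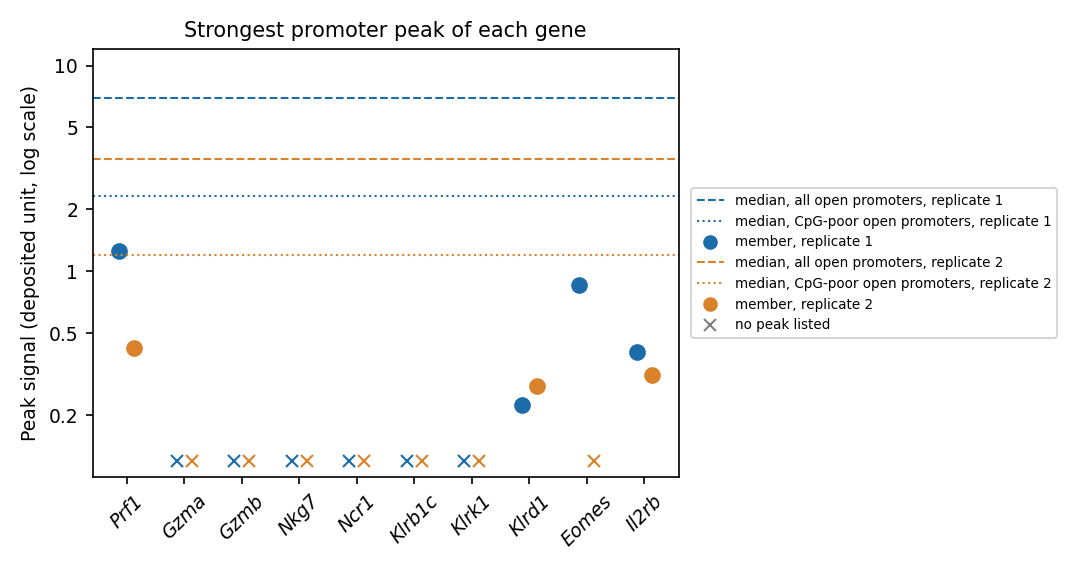
Signal of the strongest promoter peak of each gene, in the deposited unit on a log axis, with blue points for replicate 1, orange points for replicate 2 and crosses where no peak was listed. Lines give the medians of open promoters per library (dashed, all; dotted, CpG-poor), and every point lies under the lines of its own library, with Prf1 in replicate 1 highest at 1.26.

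Few sites overlapped the gene bodies. Only 3 sites found in both libraries overlapped 1 of the genes: the promoter sites of Klrd1 and Il2rb, and a site in a coding exon of Il2rb. At Klrd1 the replicate 1 peak ended at chr6:129591773, upstream of the gene, and the replicate 2 peak alone reached into it. The Il2rb exon site, chr15:78481590-78481761, reached 0.495 in replicate 1 and 0.289 in replicate 2 and lay 13596 bp downstream of the TSS. Thus 2 of the 10 genes held a site of both libraries, against 68.5% of all protein-coding genes and 53.8% of the 9579 protein-coding genes with spans in the range of the NK genes (1177 to 16016 bp). These shares include promoter sites that reach into a gene and were not split by CpG class. Since 9 of the 10 genes are CpG-poor, the sets compared are unlike in this respect. Klrb1c held an intron peak of 0.649 in replicate 2 at chr6:128786521-128786700 and none in replicate 1. With a reciprocal overlap of 50% the count of sites inside the genes was 0.

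Around the genes the sites were unevenly spread. Klrb1c had 14 sites of both libraries within 50 kb of its span, Nkg7 and Il2rb had 12 each, Prf1 and Klrd1 5 each, Eomes 4, Klrk1 3, Gzmb 2, Ncr1 1 and Gzma 0. The median of the 10 genes was 4.5 sites and that of all protein-coding genes was 8. A window with 0 such sites, as for Gzma, was found for 13.2% of protein-coding genes. All 3 Klrk1 sites also lay in the Klrd1 window, since these genes are neighbours, so the 55 sites are counted once each. The joined windows held 5.54 sites per 100 kb against 2.68 per 100 kb over the called chromosomes, which also take in stretches far from genes. By windows around genes, the median of the 10 genes was below that of all protein-coding genes, as given above. Of the 55 sites, 18 had a start of 1 of the 10 genes as the nearest protein-coding TSS, and 8 of those belonged to Klrb1c. Another 33 sites were found in a single library, 23 in replicate 1 and 10 in replicate 2.

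**Figure D2:**
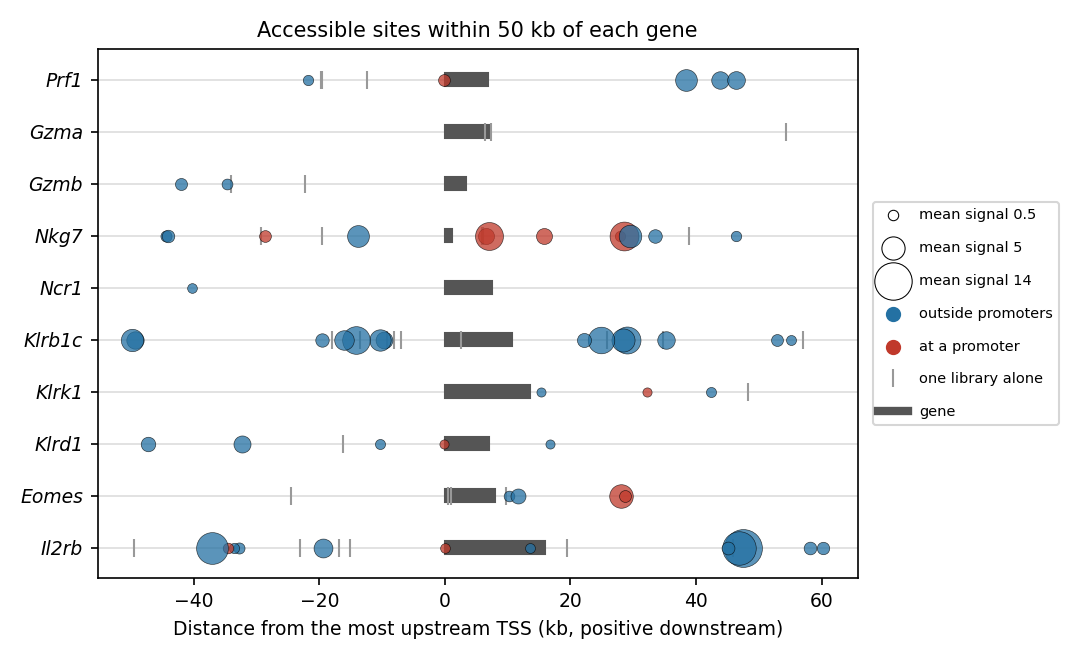
Sites within 50 kb of each gene, placed by distance in kb from the most upstream TSS, with circles for sites of both libraries (area by mean signal; blue outside promoters, red at a promoter of any gene), grey ticks for sites of 1 library and dark bars for the genes. Klrb1c, Nkg7 and Il2rb carry 14, 12 and 12 sites, while Gzma has none of both libraries.

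The strong sites near Prf1 lay in a neighbouring gene. The strongest Prf1 site outside promoters, printed above, lay 38457 bp downstream of the TSS in an intron of Pald1, where its signal reached 6.05 in replicate 1 and 2.58 in replicate 2. It exceeded 94.9% of sites outside promoters in replicate 1 and 92.6% in replicate 2. Another 2 sites followed in Pald1, with signals of 3.59 and 3.77 in replicate 1 and 1.57 and 1.55 in replicate 2. Upstream of Prf1 the site in both libraries nearest to the promoter was a weak one 21843 bp away, with 0.581 in replicate 1 and 0.406 in replicate 2.

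Nkg7 is a gene of 1177 bp in a dense region, and 6 of its 12 sites were promoters of other genes. The strongest were the promoters of Vsig10l, with 12.5 in replicate 1 and 3.61 in replicate 2, and of Etfb, with 11.2 and 3.88. Outside promoters the strongest was in an exon of Vsig10l, 29497 bp downstream, with 6.97 in replicate 1 and 2.42 in replicate 2. None of the 12 had Nkg7 as its nearest protein-coding start. Gzmb had 2 sites, both upstream and nearest to Gzmb. The one printed, 42110 bp upstream, reached 0.326 in replicate 1 and 1.46 in replicate 2, a log2 ratio of -2.16 where the median site had 0.84. It thus stood at percentile 7.11 of sites outside promoters in replicate 1 and at percentile 81.9 in replicate 2. The other Gzmb site, 34690 bp upstream, had 0.851 in replicate 1 and 0.339 in replicate 2. The printed site was thus the weaker of the 2 in replicate 1, and the stronger by the mean of both libraries.

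Ncr1 had a single site, 40334 bp upstream at chr7:4297301-4297480, with 0.240 in replicate 1 and 0.473 in replicate 2. Around Klrd1 and Klrk1 the strongest site was the one printed, 32292 bp upstream of Klrd1, with 3.15 in replicate 1 and 1.69 in replicate 2. A site between the genes, 16818 bp downstream of the Klrd1 TSS, had 0.199 in replicate 1 and 0.281 in replicate 2 and was among the weakest. A site in an intron of Klre1, a lectin receptor gene next to Klrd1, had 0.379 and 0.494.

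Eomes had 2 sites of its own outside promoters, both downstream. The stronger, printed above, lay 11628 bp from the TSS, with 2.39 in replicate 1 and 1.06 in replicate 2, and the other, 10192 bp from it, had 0.701 and 0.427. The strongest site of its window was the promoter of Golga4, with 8.11 in replicate 1 and 2.26 in replicate 2. The Il2rb window held the strongest of the 55 sites, in an intron of Tmprss6 47431 bp downstream of the Il2rb TSS. Its signal was 19.7 in replicate 1 and 9.06 in replicate 2, above 99.8% of sites outside promoters in each. A second site in Tmprss6 had 14.1 and 8.23, and a site 37069 bp upstream of Il2rb, nearest to C1qtnf6, had 15.2 and 4.73. Tmprss6 encodes a membrane protease that acts in iron control. Nearer to Il2rb, a site 19479 bp upstream had 3.68 in replicate 1 and 2.51 in replicate 2.

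Sites outside promoters around the NK genes were often among the strong ones of the genome. A site counted as strong when it was in the top 10% of sites outside promoters in each library, at or above 4.05 in replicate 1 and 2.19 in replicate 2. Of the 43 sites, 12 (27.9%) were strong, against 8.08% of all 48823 sites outside promoters. Klrb1c had 6 of the 12, Il2rb 3, Nkg7 2 and Prf1 1, and the other genes had none. Without the Klrb1c window the count was 6 of 29 (20.7%). Among the 15 sites outside promoters whose nearest protein-coding start was 1 of the 10 genes it was 5 (33.3%). All of them lay in the Klrb1c window and belonged to the pairs of copies described below. The median signal of the 43 sites was 1.98 in replicate 1 and 1.18 in replicate 2, against 0.934 and 0.595 over all sites outside promoters.

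**Figure D3:**
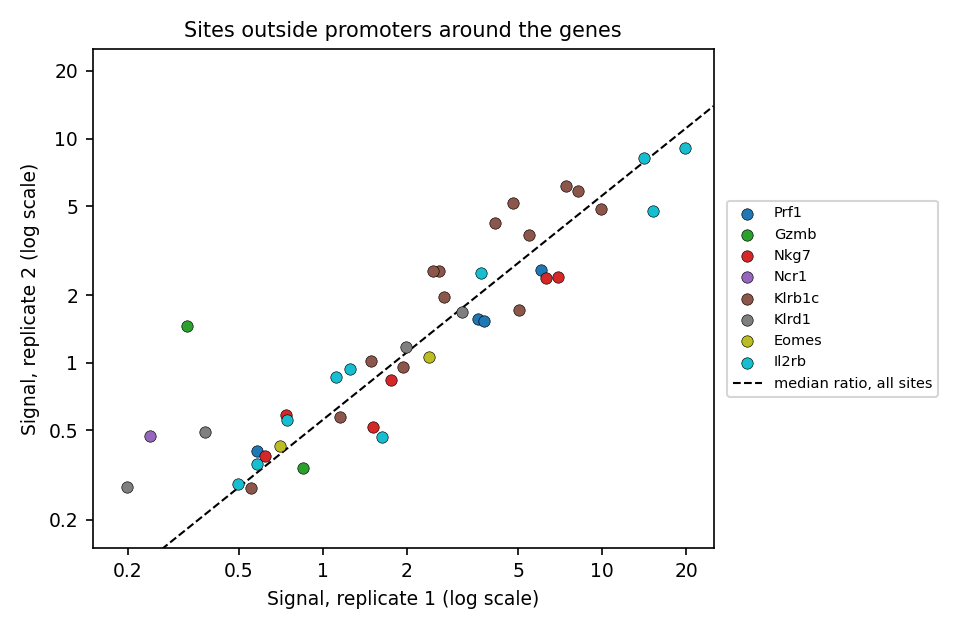
Signal of each site outside promoters around the genes in replicate 1 (horizontal) and replicate 2 (vertical), both on log axes in the deposited unit, coloured by gene, with sites shared by Klrd1 and Klrk1 drawn once. The dashed line is the median ratio of all sites (log2 0.84), and the Gzmb site at 0.326 and 1.46 lies farthest above it.

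The Klrb1c window held accessible sites that are copies of each other. Klrb1c had 14 sites of both libraries, all outside promoters, on both sides of a gene with none in its body. Of these, 8 formed 4 pairs, with the first site of each pair downstream of the gene and its copy upstream. The copies lay 38784, 38740, 38885 and 38324 bp apart and were 94.4%, 95.1%, 87.4% and 96.1% identical. In the pair of 87.4% the copied stretch covered only 65 bases of the partner site, and in the others it covered 156 to 340. The upstream sites lay in an intron of the annotated gene Gm44511.

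Both sites of a pair were open in each library, with unequal signals. In the printed pair the downstream site had 8.19 in replicate 1 and 5.81 in replicate 2, and its upstream copy had 2.72 and 1.97. The STAT letters, found as TTCGGGGAA in both printed copies, had all 9 bases in shared footprints in the upstream copy and 6 of 9 in the downstream site. In the next pair the signals were 4.80 and 5.14 downstream, against 4.13 and 4.19 upstream. In the pair of partial copies they were 7.38 and 6.12 downstream, against 9.92 and 4.86 upstream, the strongest site of the window in replicate 1. In the last pair they were 1.94 and 0.963 downstream, against 5.02 and 1.72 upstream. The stronger copy was thus downstream in 2 pairs and upstream in 1, and in the pair of partial copies it differed between libraries.

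A copy at 95% identity or more over at least 80% of the length was found for 5 of the 55 sites, all 5 in the Klrb1c window, and for 0 of the 10 windows around the most upstream TSS. The cut divides pairs: the printed downstream site, at 94.4%, is not among the 5, while its upstream copy, at 95%, is. For those 5 sites and the sites paired with them, the sources used here do not say how reads were placed between copies. The values of single copies are therefore uncertain. The part of read placement in the counts of the Klrb1c window was not tested.

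**Figure D4:**
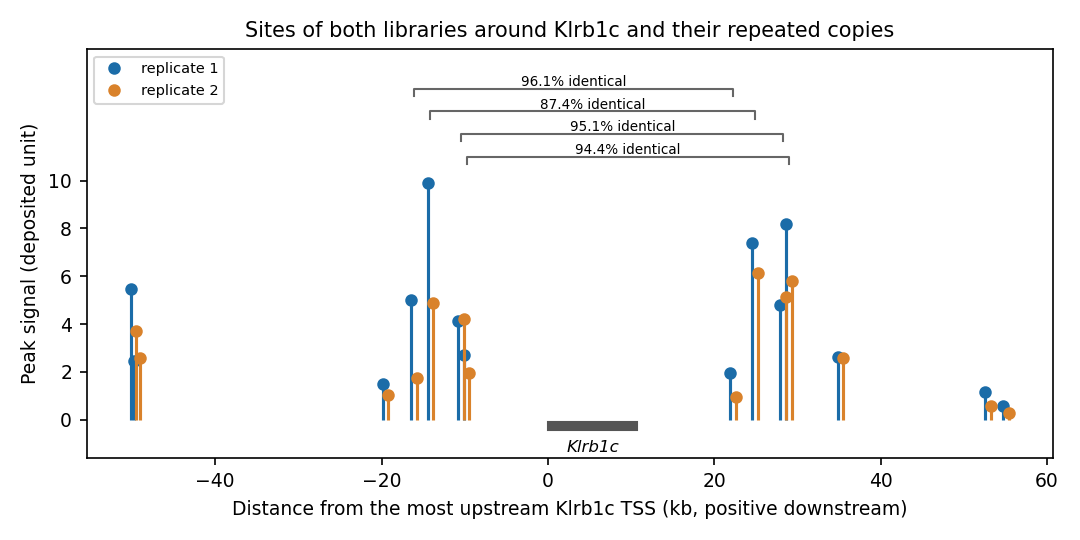
Signal (deposited unit) of the 14 sites of both libraries around Klrb1c by distance in kb from its most upstream TSS, with blue for replicate 1 and orange for replicate 2 drawn slightly apart, and the gene as a dark bar. Brackets join the 4 pairs of copies with their identity, 87.4% to 96.1%, across the gene.

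The ratio of replicate 1 over replicate 2 was read against its median over all sites, since the scale of each library is not known. Its median on the log2 scale was 0.50 for the 19 sites of the Klrb1c, Klrk1 and Klrd1 windows on chromosome 6 and 1.06 for the other 36, against 0.78 for all 3921 sites of chromosome 6. Of the 19 sites, 14 lay in the Klrb1c window, with the pairs of copies, where values of single copies are uncertain. The 3 sites of the Klrk1 window were weak, with at most 0.379 in replicate 1 and 0.494 in replicate 2. No test was made of these ratios, since there is 1 library a replicate and sites share it.

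Footprints were found at nearly all of these sites. Of the 55 sites, 50 (90.9%) had a footprint in each library, against 87.1% of all sites in both, and outside promoters 40 of 43 (93.0%) did, against 88.4%. Footprints of both libraries overlapped at 48 of 55 (87.3%), against 76% of all sites. The printed Prf1 downstream site had 73 of its 180 bases in shared footprints, and the Il2rb site 67 of 160.

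Letters of factors known in NK cells were searched on both strands in the central 200 bp of each site, and a base could belong to more than 1 match. A match is a description and no site of binding. The ETS letters GGAAGT were in 13 of the 43 sites outside promoters (30.2%), against 19.6% of all sites outside promoters. Of these 13, 8 lay in the Klrb1c window, and without it the count was 5 of 29 (17.2%). In the central 100 bp ETS letters were in 7 of all 55 sites (12.7%), against 11.3% of all sites. The RUNX letters TGTGGT were in 8 of the 43 sites outside promoters (18.6%), against 19%, and the STAT letters TTCNNNGAA in 4 (9.30%), against 5.19%. Apart from a site in an intron of Klre1, the STAT sites all lay in the Klrb1c window. The SP/KLF letters GGGCGG were in 9 (20.9%), against 11.1%. The E-box CAGCTG was in 7 (16.3%), against 16.8%, and the letters AGATAA of GATA factors in 4 (9.30%), against 10.5%. The IRF letters GAAANNGAA were in 3 (6.98%), against 6.03%, and the AP-1 letters TGANTCA in 3 (6.98%), against 6.55%. The TCF/LEF letters TTCAAAG were in 1 (2.33%), against 3.83%. The T-box letters AGGTGTGA, read by factors such as Eomes, and the NFIL3 letters TTACGTAA were in none, and these were rare in the genome too, at 0.846% and 0.0553%. Copies in the Klrb1c window share letters, so sites are not independent: both ETS and RUNX were in both copies of the 96.1% pair. STAT and SP/KLF letters were in both copies of the 94.4% pair.

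The core of the CTCF consensus recurred in the printed sequences. CTCF is an insulator protein that holds chromatin loops. Its core, the letters CCA, AG and GGC each separated by 2 bases of any kind, was searched after the sequences had been seen. It was in 13 of the 43 sites outside promoters (30.2%), against 21.7% of all such sites. All 4 Prf1 sites outside promoters had it, with 3 of the Il2rb sites, 2 of the Nkg7 sites and 1 each of the Ncr1, Klrb1c, Klrd1 and Eomes sites. In the printed downstream sites of Prf1, Eomes and Il2rb and the upstream site of Klrd1, all 12 bases of the core lay in shared footprints. Of the 12 strong sites 3 had it, against 40.5% of all strong sites outside promoters. These 3 were in the Prf1, Nkg7 and Il2rb windows. The Klrb1c window held 6 of the 12 strong sites, and each of them was without the core. Exact letters were searched, so near matches were not counted.

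Lists of the wider NK programme are set against 60.7% of all protein-coding genes, and against 19.1%, 70.2% and 92.9% in the CpG-poor, middle and CpG-rich classes. None of 8 further granzyme genes had a promoter peak in either library. For granule loading and release, 10 of 11 genes had one in both (8 of the 11 were outside the CpG-poor class), led by Lamp1, a lysosome membrane protein, with 23.0 in replicate 1 and 6.52 in replicate 2, and Lyst, a regulator of lysosome size, with 21.1 and 8.17. Of the other NK receptors 4 of 20 did, the strongest being Fcgr3, an Fc receptor also used by macrophages, with 4.01 and 2.51, and the lectin gene Klrb1f, with 3.19 and 1.39. The 6 Klra genes on the list, which encode Ly49 receptors, had no promoter peak and 0 sites of both libraries within 50 kb. They are close paralogs, and the sources used here do not say how reads shared between paralogs were counted. Receptor adaptors and kinases were open in 9 of 11 cases, led by Vav1, an exchange factor, with 5.50 and 1.89, and the kinase gene Syk, with 2.54 and 1.10, closely followed by the phospholipase gene Plcg2, with 2.74 and 0.883.

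Of the transcription factor genes of NK cells 8 of 11 were open in both libraries, and 4 when the most upstream TSS alone was used, led by Ets1, with 15.7 in replicate 1 and 6.97 in replicate 2, and Id2, an inhibitor of E proteins, with 7.42 and 3.64. Tbx21, which encodes the T-box factor T-bet, and Zfp683 had none in either library, and Tcf7 had 0.829 in replicate 1 alone. For the response to interleukins 15, 12 and 18 the count was 10 of 13, led by the kinase gene Jak1, with 27.1 and 10.4, and Stat5a, with 6.98 and 2.63. Of 8 effector cytokines and death ligands 2 did, Tnfsf10 with 0.833 and 0.729 and Csf2 with 0.491 and 0.285, while Ifng, the interferon gamma gene, had none. Of 8 homing receptors 4 did, led by the integrin gene Itga2, with 1.89 and 0.737.

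Within the CpG-poor class, where 19.1% of all genes were open, the count was 3 of 9 for the 10 genes described here, 0 of 7 for further granzymes, 2 of 16 for other NK receptors and 5 of 7 for adaptors and kinases. It was 4 of 7 for the interleukin response, 2 of 3 for granule release, 1 of 2 for transcription factors, 2 of 7 for effector genes and 2 of 5 for homing receptors. Among the other cell types it was 7 of 10 for T cell genes, 6 of 6 for B cell genes, 5 of 5 for red cell genes, 4 of 8 for macrophage genes, 5 of 9 for neutrophil genes and 0 of 7 for liver genes. Among genes open in both libraries, the median promoter signal was 0.405 in replicate 1 and 0.314 in replicate 2 for Prf1, Klrd1 and Il2rb, 0.608 and 0.452 for neutrophil genes, 0.776 and 0.423 for macrophage genes, 1.20 and 0.498 for T cell genes, and 6.03 and 3.04 for red cell genes. T cells also use Prf1 and Il2rb, T cell genes were open in both libraries in 7 of 12 cases, and their part in the values of these genes was not tested.

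**Figure D5:**
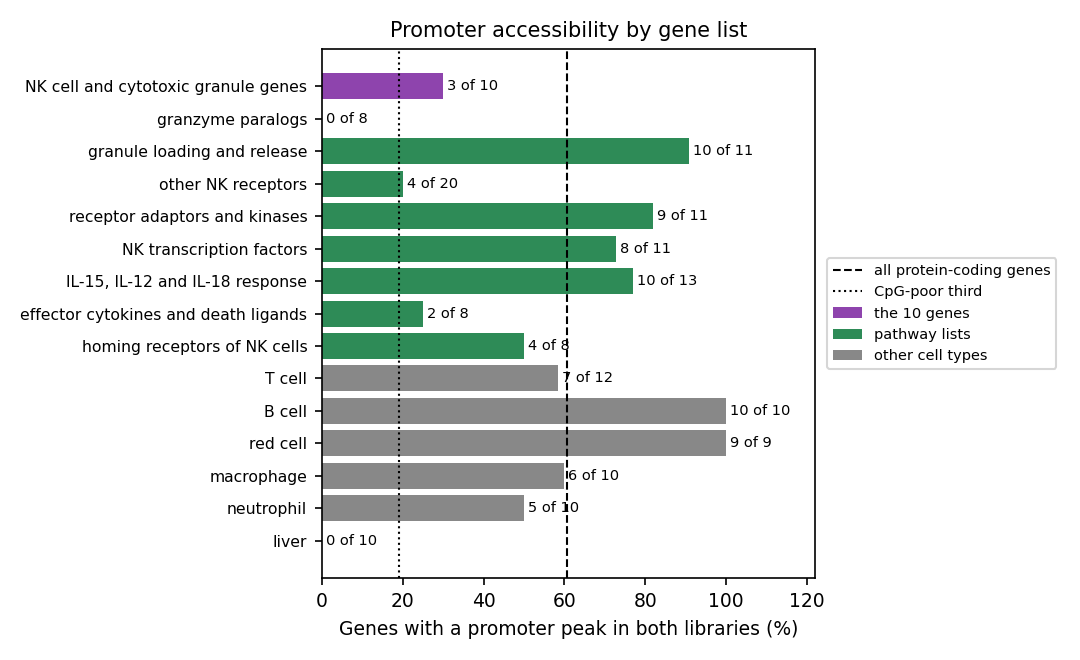
Share of genes with a promoter peak in both libraries, in percent, for the 10 NK cell and cytotoxic granule genes (purple), lists of the same pathway (green) and marker lists of other cell types (grey), with counts beside the bars. Vertical lines give all protein-coding genes (60.7%, dashed) and the CpG-poor class (19.1%, dotted), and the 10 genes stand at 3 of 10.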

How the data were processed

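DNase-seq was deposited for 2 spleen libraries, replicates 1 and 2 of 1 group. Per the deposited README, every list was made for 1 library from its filtered alignment to mm10. For the aligner, callers, versions and any treatment of CAST/EiJ alleles, details were not given in the sources used here. Peak signals, deposited by the authors, are depth-scaled densities with an unstated constant. The FDR of the cut rate, a q-value deposited by the authors for stretches below 0.05, was used per promoter. Footprints carry a constant deposited value (0.01), and only their positions were used.

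The longer peak list was used. Peaks of both libraries overlapping by at least 1 bp were merged into sites with the strongest signal per library. Genes and TSSs came from GENCODE M21. Windows were gene spans with 50 kb either side, and sites outside promoters overlapped no gene's promoter. Copies were searched with BLAST+ 2.17.0 in GRCm38. Values were computed with Python 3.11.15, numpy 2.4.6, pysam 0.24.0 and samtools 1.23.1, and the steps were tested on simulated data. The members and lists were chosen with earlier results of these data known. Named by rule were all 10 genes, the strongest site outside promoters of each, every site inside them and the 2 strongest genes of each pathway list, by the mean signal of both libraries. A gene that this rule picked is not reported here. Other features were named after their values were seen. Vamp7 and Ahsp were not matched. No test was made, since there is 1 group. The alternatives were other peak lists, windows, TSS choices, overlaps, footprint rules and each library alone.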

Additional observations from a re-analysis of the deposited data

How the results depend on the processing

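The 3 genes with a promoter peak in both libraries (Prf1, Klrd1 and Il2rb) kept it with windows of 100 and 1000 bp, with the most upstream TSS and with protein-coding TSSs. The shorter deposited list left 1 (Prf1), and peaks at or above the median signal left 0. From a single library the count was 3 to 4. Sites inside the genes, 3 in both libraries, fell to 0 with the shorter list, with peaks at or above the median and with a reciprocal overlap of 50%, and numbered 4 to 5 from a single library.

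Sites around the genes, 55 at 50 kb, numbered 26 at 25 kb, 117 at 100 kb and 18 when counted by nearest TSS. Those with a footprint in each library, 50 at 50 kb, numbered 25, 106 and 17. The shorter list gave 39 sites. From a single library there were 66 to 79 sites and 59 to 73 with a footprint. The listed motifs averaged 1.2 per site in the central 200 bp and 0.764 in the central 100 bp, where fewer bases were searched. Genes of the pathway and cell type lists with a promoter peak in both libraries numbered 84, and 89 to 93 from a single library. They numbered 59 with peaks at or above the median signal, 69 with the most upstream TSS and 72 with the shorter list. With peaks at or above the median, T cell genes fell to 3, adaptors and kinases to 5, homing and other NK receptors to 2 each, macrophage genes to 2, and neutrophil and effector genes to 1 each. Transcription factors fell to 4 with the most upstream TSS. Of 158 alternative values, 127 equalled the main value or kept to within 1.5 times of it.

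No paired analysis was possible because the series has 1 group. With 2 libraries of unknown depth, accessibility at a promoter without a peak was not detectable at this depth, which does not show that it is absent.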
